A study of Mus musculus with 43 samples.

Results

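The genes described are 33 genes of the lysosome, the acidic compartment in which cells break down proteins, lipids and sugar chains. They were taken by symbol from a list of lysosomal hydrolases, membrane proteins, lipid carriers and regulators that leaves out the cathepsins. All 33 were found once among the 55804 gene rows of each of the 2 expression tables, and all 33 passed the minimum mean of 1 TPM for testing in both. TPM, a transcript abundance, corrects each gene for its length and sets the sum over a library to the same value in all libraries.

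The data are RNA sequencing of brain tissue, with no region given, from 2 mouse models of Alzheimer's disease. AppNLGF mice carry the AppNL-G-F/NL-G-F alleles, familial disease mutations in their own App gene, and were 6 months old. That cohort held 4 wild type libraries given vehicle, 11 AppNLGF libraries given vehicle and 13 AppNLGF libraries given CDDO-2P-Im, a synthetic triterpenoid that induces the antioxidant transcription factor NRF2, at 30 µmol/kg by mouth 3 times a week for 4 weeks. APP/TAU mice carry APPV717I::TAUP301L, with mutations V717I in APP and P301L in TAU, were 11 months old, and gave 5 libraries per group: wild type with vehicle, APP/TAU with vehicle, and APP/TAU with CDDO-2P-Im at the same dose for 2 weeks. The vehicle was a mixture of DMSO, Cremophor and saline that every control received, and no wild type library received the compound. Which promoters drive the APP/TAU transgenes is not given in the sources used. Nothing in the labels says that each library of a group is a separate mouse, so p measures the spread between these libraries. In such bulk tissue, fewer cells of a type and less RNA per cell cannot be told apart.

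Lysosomal enzymes are made in the endoplasmic reticulum, tagged in the Golgi and carried to the lysosome, where membrane proteins such as LAMP1 and LAMP2 enclose them and the vacuolar ATPase acidifies the lumen. The transcription factors TFEB and TFE3 switch on many of these genes through the E-box of the CLEAR element when nutrient signalling by mTORC1 falls. Loss of single members causes lysosomal storage diseases, many of which affect the brain, and loss of progranulin (Grn) causes neuronal ceroid lipofuscinosis. Microglia, the macrophages of the brain, are rich in lysosomes and gather around amyloid plaques.

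Because the CLEAR element is the route by which these genes are known to be controlled together, their promoters were searched for it. RefSeq promoter windows, 250 bases before to 50 bases after a transcription start on GRCm38.p6, were at hand for 30 of the 33 members, with 36 windows in all. The E-box core CACGTG, the same on both strands, lay in the windows of 10 members: Arsa, Cln3, Gaa, Gla, Glb1, Lamp1, Lgmn, Mcoln1, Naglu and Sgsh. It lay in 7.15% of all 32851 windows. The longer TCACGTGA, which contains the core, lay in the windows of 3 members, Cln3, Gla and Mcoln1, and in 0.974% of all windows, and the full palindromic CLEAR consensus, which adds a flanking G and C, in the window of 1 member, Cln3, and in 0.326% of all windows. The antioxidant response core TGACNNNGC, bound by NRF2 and searched on both strands, lay in the windows of 7 members (Cln3, Galc, Hexa, Naglu, Psap, Scarb2 and Tpp1) and in 12.4% of all windows. Of the CLEAR element only these exact letters were searched, so variants that differ by a base were not counted. A match is a run of letters, not a binding site. The sequences below are those of the 5 members whose RNA was higher in AppNLGF brain, described next, and of Lamp1 and Mcoln1, which carry the E-box core and were not called higher. Each is the longest stretch before the start that overlaps no GENCODE M21 exon, 5′ to 3′ on the strand of the gene, with the motifs in capitals.
Grn chr11:102430257-102430314, + strand: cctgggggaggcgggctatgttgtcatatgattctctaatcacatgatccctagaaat
Gusb chr5:130003050-130003299, - strand: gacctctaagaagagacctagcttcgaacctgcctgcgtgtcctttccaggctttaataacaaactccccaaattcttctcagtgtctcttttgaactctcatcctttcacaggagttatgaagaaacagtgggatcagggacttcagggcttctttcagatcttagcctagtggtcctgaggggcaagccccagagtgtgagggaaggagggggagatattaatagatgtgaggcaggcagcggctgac
Man2b1 chr8:85083019-85083268, + strand: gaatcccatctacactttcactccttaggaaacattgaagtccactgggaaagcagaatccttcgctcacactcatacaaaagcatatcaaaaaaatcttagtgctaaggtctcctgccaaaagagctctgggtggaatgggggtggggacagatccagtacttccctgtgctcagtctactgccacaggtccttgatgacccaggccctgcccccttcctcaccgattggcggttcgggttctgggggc
Hexa chr9:59539290-59539539, + strand: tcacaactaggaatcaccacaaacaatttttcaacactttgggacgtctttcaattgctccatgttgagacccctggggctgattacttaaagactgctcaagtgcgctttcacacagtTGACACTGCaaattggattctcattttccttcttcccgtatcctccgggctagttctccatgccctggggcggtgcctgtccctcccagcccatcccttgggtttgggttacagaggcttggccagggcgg
Npc2 chr12:84773153-84773250, - strand: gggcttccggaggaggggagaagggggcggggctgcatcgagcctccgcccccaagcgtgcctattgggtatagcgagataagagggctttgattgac
Lamp1 chr8:13158911-13159160, + strand: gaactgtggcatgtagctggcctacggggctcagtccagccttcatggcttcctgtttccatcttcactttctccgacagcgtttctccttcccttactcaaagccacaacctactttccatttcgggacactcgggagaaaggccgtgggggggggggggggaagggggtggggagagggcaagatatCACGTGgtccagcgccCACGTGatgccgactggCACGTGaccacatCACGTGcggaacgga
Mcoln1 chr8:3500269-3500456, + strand: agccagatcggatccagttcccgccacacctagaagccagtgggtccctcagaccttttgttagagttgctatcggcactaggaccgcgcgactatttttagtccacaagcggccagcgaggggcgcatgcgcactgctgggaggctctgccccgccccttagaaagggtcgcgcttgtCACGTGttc
The shown stretches of Grn, Gusb, Man2b1 and Npc2 hold neither motif. None of the 5 members has CACGTG in its whole window, the Hexa stretch holds 1 TGACNNNGC match, and the Lamp1 stretch holds 4 CACGTG cores.

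In wild type brain at 6 months, prosaposin (Psap), the precursor of the saposins that hand sphingolipids to their hydrolases, was the most abundant member at 565 ± 17.1 TPM (SD, n = 4). It held 44.5 to 46.8% of the members' summed TPM in these libraries. The acid alpha-glucosidase gene Gaa, at 104 ± 10.6 TPM, and the membrane gene Lamp1, at 102 ± 4.02 TPM, came next, and their ranges overlapped. Smpd1, the acid sphingomyelinase, and the asparaginyl protease gene Lgmn followed at 46.6 ± 2.70 and 45.0 ± 2.57 TPM, also within their spread. The lowest were Galns, Manba and Sgsh at 2.41 ± 0.807, 2.38 ± 0.274 and 1.75 ± 0.232 TPM, 3 hydrolases of glycosaminoglycans and glycoproteins. The 2 regulators were low to moderate, Tfeb at 3.43 ± 0.554 and Tfe3 at 10.6 ± 1.38 TPM.

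Grn, Gusb, Man2b1, Hexa and Npc2 stood higher in AppNLGF brain than in wild type brain, the last 3 past the test only after rescaling, and the other 28 members did not pass. With TPM as deposited, 2 of the 33 rose, Grn and Gusb, and none fell, against 0.28% of all 16776 genes called in either direction (limma, Benjamini-Hochberg adjusted p below 0.05). Because 1 abundant RNA without a symbol takes 15.5 to 40.0% of a library's TPM and so moves all other values, the libraries were also rescaled by the median, over tested genes, of each library's ratio to the gene's geometric mean. On that scale 5 members rose, Grn, Man2b1, Gusb, Hexa and Npc2, and none fell, against 0.691% of all genes. The members' median difference was 0.02 on the log2(TPM + 1) scale with deposited TPM (all genes -0.03) and 0.04 with median-ratio scaling (all genes -0.00), so the median member lay close to the median gene. Differences were above 0 for 20 of the 33 members as deposited, where 38.3% of all genes were. With median-ratio scaling they were above 0 for 23 members, where 49.5% of all genes were, and these counts were not tested.

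Grn, progranulin (chr11:102430315-102437048), a secreted glycoprotein that is cut into granulins in the lysosome, stood at 19.6, 20.6, 20.7 and 17.9 TPM in the 4 wild type libraries. The 11 AppNLGF vehicle libraries ranged from 24.2 to 32.8 TPM with a median of 28.6, all above the highest wild type library. The difference was 0.51 ± 0.098 on the log2(TPM + 1) scale (SE, adjusted p = 0.00932) and 0.54 ± 0.063 with median-ratio scaling (adjusted p = 4.87e-06). The call on deposited TPM rested on single wild type libraries: the adjusted p was 0.0554 without replicate 1 and 0.0841 without replicate 4. With median-ratio scaling it held in all 37 alternatives run.

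Gusb (chr5:129989011-130003049) encodes beta-glucuronidase, which removes glucuronic acid from glycosaminoglycans. The wild type libraries stood at 4.36, 6.05, 5.60 and 3.05 TPM. The AppNLGF vehicle libraries ran from 5.06 to 9.51 TPM with a median of 7.46, and 10 of the 11 were above the highest wild type library. What share of all genes has that count is not given here. Gusb was 0.59 ± 0.12 higher on the log2 scale with deposited TPM (adjusted p = 0.0196) and 0.61 ± 0.10 higher with median-ratio scaling (adjusted p = 0.00082). On deposited TPM the adjusted p was 0.139 without wild type replicate 1 and 0.284 without replicate 4.

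Man2b1, the lysosomal alpha-mannosidase that trims N-linked glycans (chr8:85083270-85098282), stood at 10.7, 12.4, 12.1 and 12.4 TPM in wild type libraries. All 11 AppNLGF vehicle libraries were higher, at 12.9 to 17.3 TPM with a median of 15.8. With median-ratio scaling Man2b1 rose by 0.40 ± 0.051 (adjusted p = 1.18e-05). With deposited TPM the difference was 0.38 ± 0.10, which did not pass (adjusted p = 0.176).

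Hexa (chr9:59539540-59565109) encodes the alpha subunit of beta-hexosaminidase, which degrades GM2 ganglioside. It stood at 18.8, 20.4, 22.6 and 21.2 TPM in wild type libraries, below all 11 AppNLGF vehicle libraries at 23.2 to 31.1 TPM with a median of 28.4. The rise was 0.43 ± 0.077 with median-ratio scaling (adjusted p = 0.00193), while the 0.40 ± 0.13 of deposited TPM did not pass (adjusted p = 0.449).

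Npc2 (chr12:84754562-84773152) encodes the soluble carrier that hands cholesterol to NPC1 in the lysosomal membrane. Its wild type values were 10.2, 11.0, 11.5 and 10.5 TPM, again below all 11 AppNLGF vehicle libraries at 11.9 to 15.2 TPM with a median of 13.8. Npc2 rose by 0.34 ± 0.066 with median-ratio scaling (adjusted p = 0.00467), and its 0.31 ± 0.094 on deposited TPM did not pass (adjusted p = 0.336). Npc1 itself was not called on either scale, at -0.02 ± 0.060 with median-ratio scaling. With deposited TPM, groups did not overlap for 4 of the 33 members (Grn, Man2b1, Hexa and Npc2), all higher in AppNLGF, against 0.399% of all genes not overlapping in that direction.

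**Figure D1:**
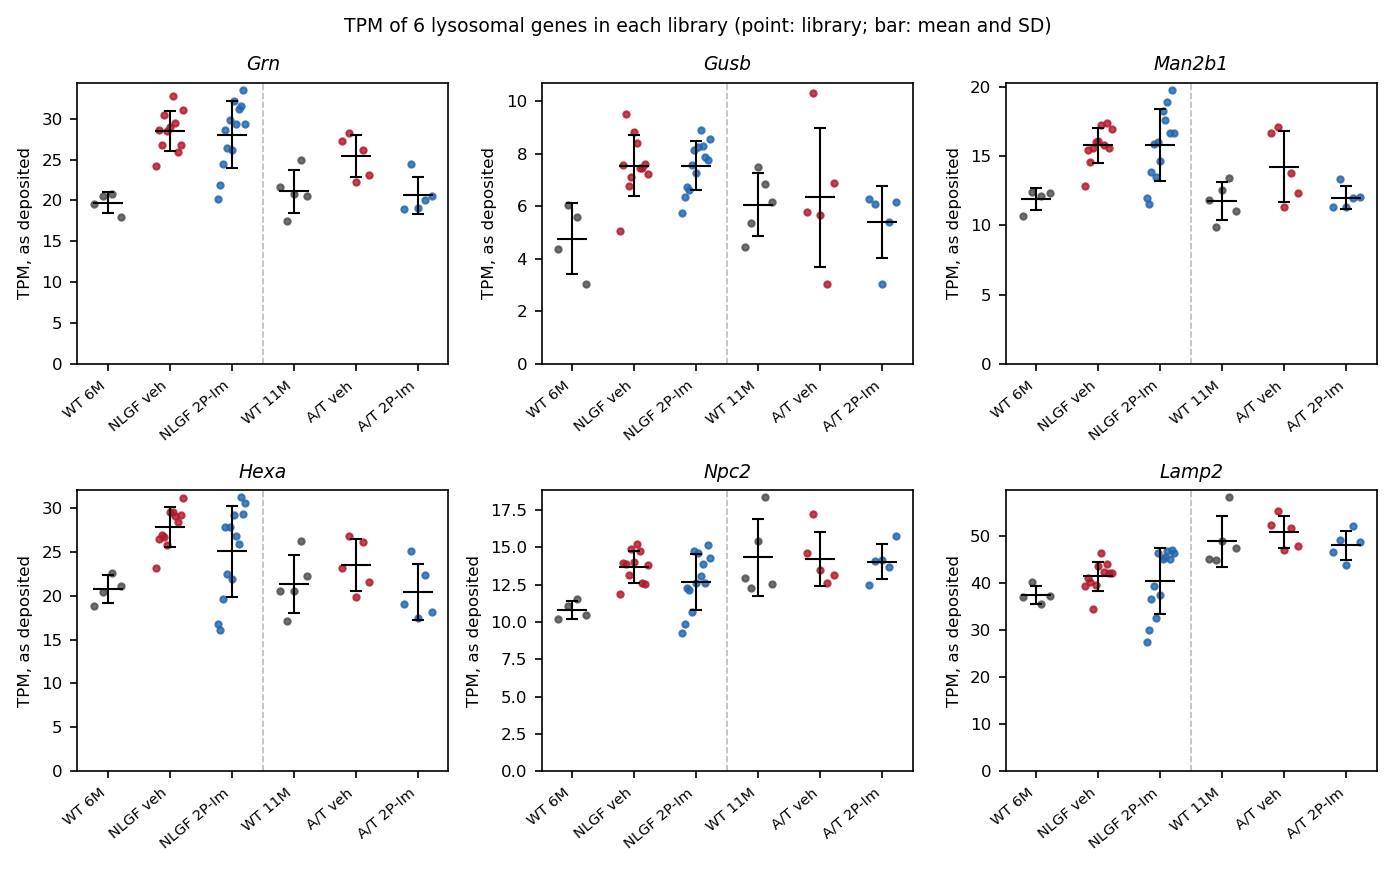
Deposited TPM on the vertical axis, from 0, of 6 lysosomal genes in each library of the wild type (WT), AppNLGF (NLGF) and APP/TAU (A/T) groups, vehicle (veh) or CDDO-2P-Im (2P-Im). Points are libraries, bars the mean and SD. Grn, Man2b1, Hexa and Npc2 of the 11 AppNLGF vehicle libraries lie above all 4 wild type libraries at 6 months (WT 6M), and the APP/TAU groups overlap. The dashed line separates tables that were normalized separately.

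The membrane proteins did not pass the test in this comparison. Lamp1, a heavily glycosylated protein that lines the membrane, stood at 101, 105, 106 and 96.9 TPM in wild type libraries and at 88.1 to 114 TPM with a median of 103 in AppNLGF vehicle libraries. The groups overlapped throughout, and the difference was 0.02 ± 0.050 with median-ratio scaling (adjusted p = 0.974). Lamp2, its partner and the receptor of chaperone-mediated autophagy, stood at 37.0, 40.2, 35.5 and 37.2 TPM against 34.6 to 46.5 TPM with a median of 42.2. Its difference was 0.17 ± 0.053 with median-ratio scaling (adjusted p = 0.242), and 8 of 11 libraries were above the highest wild type one on deposited TPM. How many of all genes reach such a count is not given here. Mcoln1, the calcium channel TRPML1, stood at 19.5, 20.0, 18.8 and 19.7 TPM against 18.7 to 23.0 TPM with a median of 19.8, a difference of 0.08 ± 0.041 (median-ratio scaling, adjusted p = 0.743).

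The regulators did not pass either. Tfeb stood at 3.28, 3.29, 4.22 and 2.93 TPM in wild type libraries and at 1.43 to 4.20 TPM with a median of 3.29 in AppNLGF vehicle libraries, a difference of -0.06 ± 0.15 with median-ratio scaling (adjusted p = 0.978). Tfe3 stood at 11.2, 11.0, 11.6 and 8.56 TPM against 8.00 to 11.6 TPM with a median of 9.35, a difference of -0.09 ± 0.071 (adjusted p = 0.875). Both overlapped between the groups. The remaining members were Psap, the membrane genes Scarb2, Npc1, Cd63 and Cln3, and 18 hydrolases: Arsa, Arsb, Asah1, Fuca1, Gaa, Galc, Galns, Gla, Glb1, Lgmn, Lipa, Manba, Naglu, Neu1, Ppt1, Sgsh, Smpd1 and Tpp1. None of them passed on either scale. Their differences with median-ratio scaling lay on either side of 0, the lowest being -0.11 ± 0.087 for Sgsh, heparan N-sulfatase, and the highest 0.22 ± 0.092 for Naglu, which acts in the same degradation of heparan sulfate (adjusted p = 0.611).

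**Figure D2:**
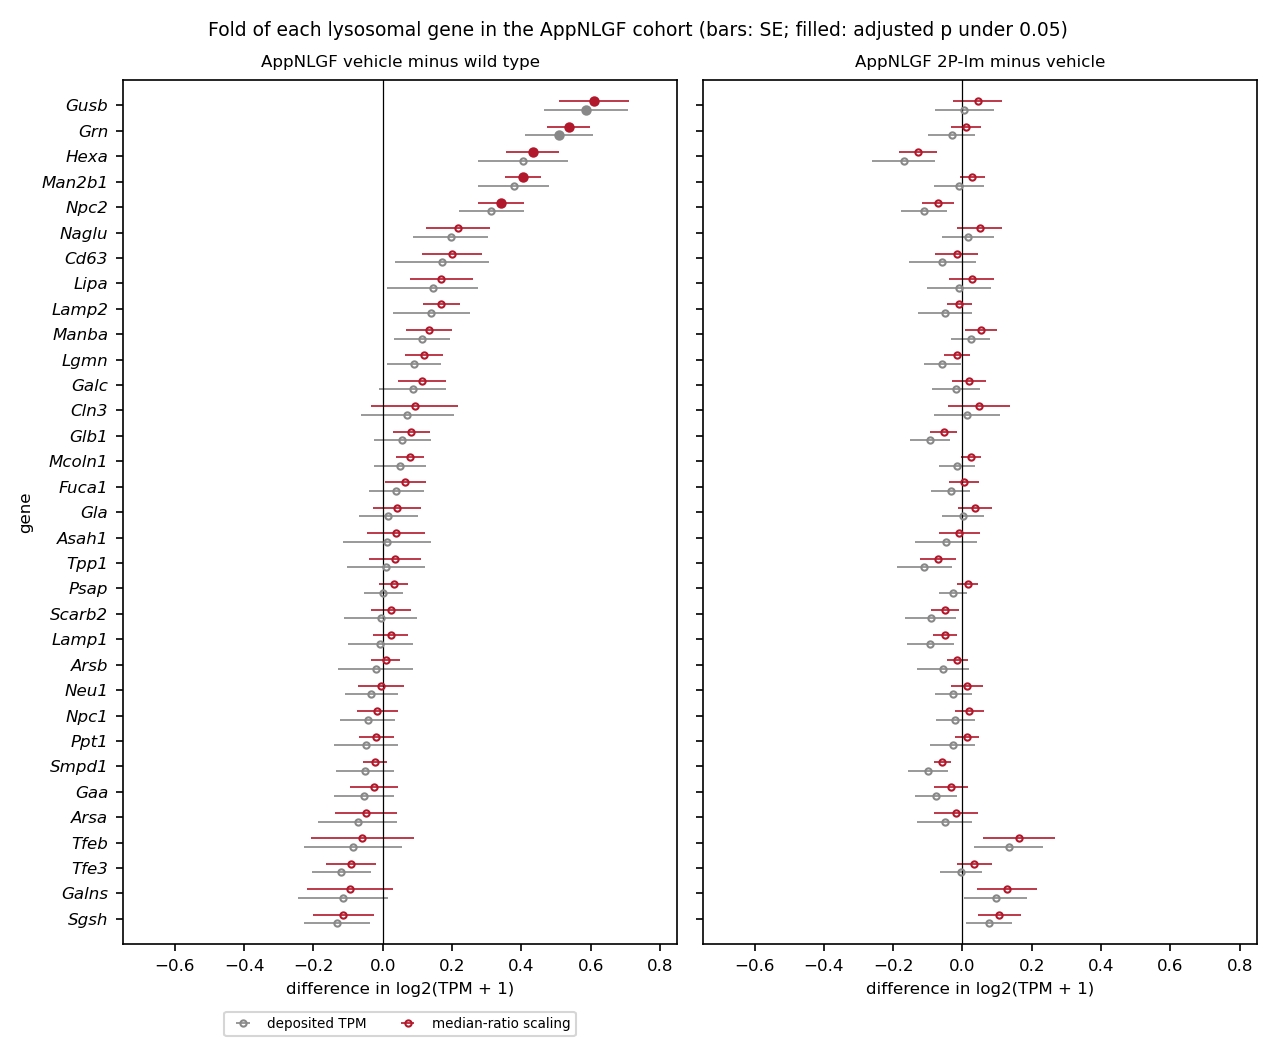
Difference in log2(TPM + 1) on the horizontal axis for each of the 33 genes (rows), with deposited TPM (grey) and median-ratio scaling (red), for AppNLGF vehicle minus wild type on the left and AppNLGF CDDO-2P-Im minus vehicle on the right. Bars are SE and filled points have an adjusted p below 0.05. On the left 2 grey and 5 red points are filled, and on the right none.

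Other lysosomal genes were read from 6 further lists. Among the hydrolases and activators outside the members, none was called with deposited TPM. With median-ratio scaling, genes that rose included Ctsa by 0.30 ± 0.041 (adjusted p = 5.8e-05) and the phospholipase Pla2g15 by 0.25 ± 0.049 (adjusted p = 0.00515). Ctsa encodes cathepsin A, the protective protein of beta-galactosidase and neuraminidase, and is thus one of the cathepsins that the members leave out. Among 28 tested membrane proteins, Cd68, a macrophage sialomucin, rose on both scales, by 1.17 ± 0.17 with median-ratio scaling (adjusted p = 0.000137). Laptm5, of hematopoietic cells, and the peptide transporter Slc15a3 rose on that scale alone, by 0.59 ± 0.10 and 0.65 ± 0.15 (adjusted p = 0.000979 and 0.0365). No tested gene was called on either scale among 18 vacuolar ATPase subunits, 18 genes of enzyme delivery, 24 autophagy genes and 20 genes of TFEB control and mTORC1. Their medians with median-ratio scaling were 0.00, 0.04, -0.02 and -0.01. After CDDO-2P-Im, no gene of these 4 lists was called in AppNLGF or APP/TAU brain.

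Markers of microglia and of other cell types differed between the same groups. The summed TPM of 15 markers of plaque-associated microglia, with median-ratio scaling, ranged from 61.1 to 69.8 in wild type, from 116 to 170 in AppNLGF vehicle and from 96.1 to 196 in AppNLGF CDDO-2P-Im libraries. In wild type libraries 8 of the 15 had a mean over 1 TPM and Tyrobp was listed at 0, and in AppNLGF vehicle libraries 14 of the 15 had such a mean. Cst7, one of them, went from 0 to 0.370 TPM in wild type to 7.93 to 19.9 TPM in AppNLGF vehicle libraries. The summed TPM of 10 markers of homeostatic microglia, all with a mean over 1 TPM, ranged from 86.7 to 94.0 in wild type and from 91.3 to 130 in AppNLGF vehicle libraries. In AppNLGF vehicle against wild type with median-ratio scaling, 11 of 14 tested plaque-associated and 2 of 10 homeostatic microglial markers rose. Summed astrocyte markers, 8 in all, ranged from 1031 to 1056 TPM in wild type and from 1168 to 1375 TPM in AppNLGF vehicle libraries, and 1 of the 8 rose. Summed endothelial markers, 6 in all, ranged from 43.4 to 46.0 TPM and from 50.3 to 61.8 TPM, and none passed. Summed blood markers, 5 in all, were at 79.8 to 246 TPM in wild type and 17.9 to 118 TPM in AppNLGF vehicle libraries, which overlap, and none of the 4 tested passed. Border macrophage markers, 5 in all, had no mean over 1 TPM in any group of this cohort. The libraries also differed in Xist, which passed 10 TPM in 0 of 4 wild type and 5 of 11 AppNLGF vehicle libraries. In treated libraries Xist ranged from 0.0483 to 98.3 TPM. With a term for Xist and median-ratio scaling, all 5 members were still called in vehicle against wild type. With that term and deposited TPM, Gusb was no longer called by limma (adjusted p = 0.0655). In treated against wild type libraries, Npc2 was lost with the term and median-ratio scaling (limma, adjusted p = 0.15). The part of any of these cell types in the members' difference was not tested.

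CDDO-2P-Im changed no member in AppNLGF brain that passed the test. None of the 33 was called on either scale by limma, against 0.0536% of all genes with deposited TPM and 0.286% with median-ratio scaling. At an unadjusted p below 0.05 there were 0 members with deposited TPM, where 6.18% of all genes were, and 2 with median-ratio scaling, Hexa and Smpd1, where 12.5% were. The members' median was -0.03 with deposited TPM (all genes -0.04) and 0.01 with median-ratio scaling (all genes -0.00).

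As deposited, Hexa ranged from 16.1 to 31.3 TPM with a median of 26.8 in the 13 treated libraries, and 5 of them lay below all 11 vehicle libraries. The share of all genes with such a count is not given here. The abundant RNA, which moves all deposited values, took 28.28 to 40.01% of TPM in treated and 29.05 to 37.95% in vehicle libraries. With median-ratio scaling, Hexa differed from vehicle by -0.13 ± 0.054 (adjusted p = 0.315). Smpd1 stood at 34.1 to 48.5 TPM with a median of 43.1 in treated and at 41.6 to 49.3 TPM with a median of 44.7 in vehicle libraries, a difference of -0.06 ± 0.024 (adjusted p = 0.312). Npc2 stood at 9.27 to 15.1 TPM with a median of 12.6, a difference of -0.07 ± 0.046 (adjusted p = 0.551). The ranges of all 3 overlapped those of vehicle.

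Grn, Gusb and Man2b1 had treated levels near those of vehicle. Grn ranged from 20.2 to 33.6 TPM with a median of 29.3, a difference from vehicle of 0.01 ± 0.044 with median-ratio scaling, and Gusb from 5.76 to 8.90 TPM with a median of 7.76, a difference of 0.04 ± 0.072. Man2b1 ranged from 11.6 to 19.8 TPM with a median of 16.0, a difference of 0.03 ± 0.036. Tfeb ranged from 2.63 to 5.01 TPM with a median of 3.69, a difference of 0.16 ± 0.10 (adjusted p = 0.539), and Tfe3 from 8.23 to 11.6 TPM with a median of 9.50, a difference of 0.03 ± 0.050. Lamp1, at 72.5 to 112 TPM with a median of 102, Lamp2, at 27.4 to 47.1 TPM with a median of 45.1, and Mcoln1, at 16.6 to 23.1 TPM with a median of 21.0, overlapped vehicle as well.

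Set against wild type, the treated AppNLGF libraries gave a similar list, which shares its wild type libraries with the vehicle comparison. With deposited TPM Grn and Gusb were called, at 0.48 ± 0.096 and 0.59 ± 0.12 (adjusted p = 0.0182 and 0.0183), against 0.262% of all genes. Grn was lost without wild type replicate 1, 2 or 4 (adjusted p = 0.112, 0.0559 and 0.149), and Gusb without replicate 1 or 4 (adjusted p = 0.143 and 0.26). With median-ratio scaling 4 members were called, against 0.715% of all genes: Grn at 0.55 ± 0.062, Man2b1 at 0.43 ± 0.050, Gusb at 0.65 ± 0.10 and Npc2 at 0.27 ± 0.064 (adjusted p = 3.05e-06, 3.05e-06, 0.000269 and 0.0412). The Npc2 call held in 21 of 37 alternatives. It was lost when any of the 4 wild type libraries was left out, with the adjusted p between 0.0809 and 0.173, when treated replicate 3, 5, 6, 7, 8, 12 or 13 was left out, with the adjusted p between 0.0551 and 0.0621, and under 5 further settings. Hexa, called in vehicle, was at 0.30 ± 0.076 (adjusted p = 0.0515).

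**Figure D3:**
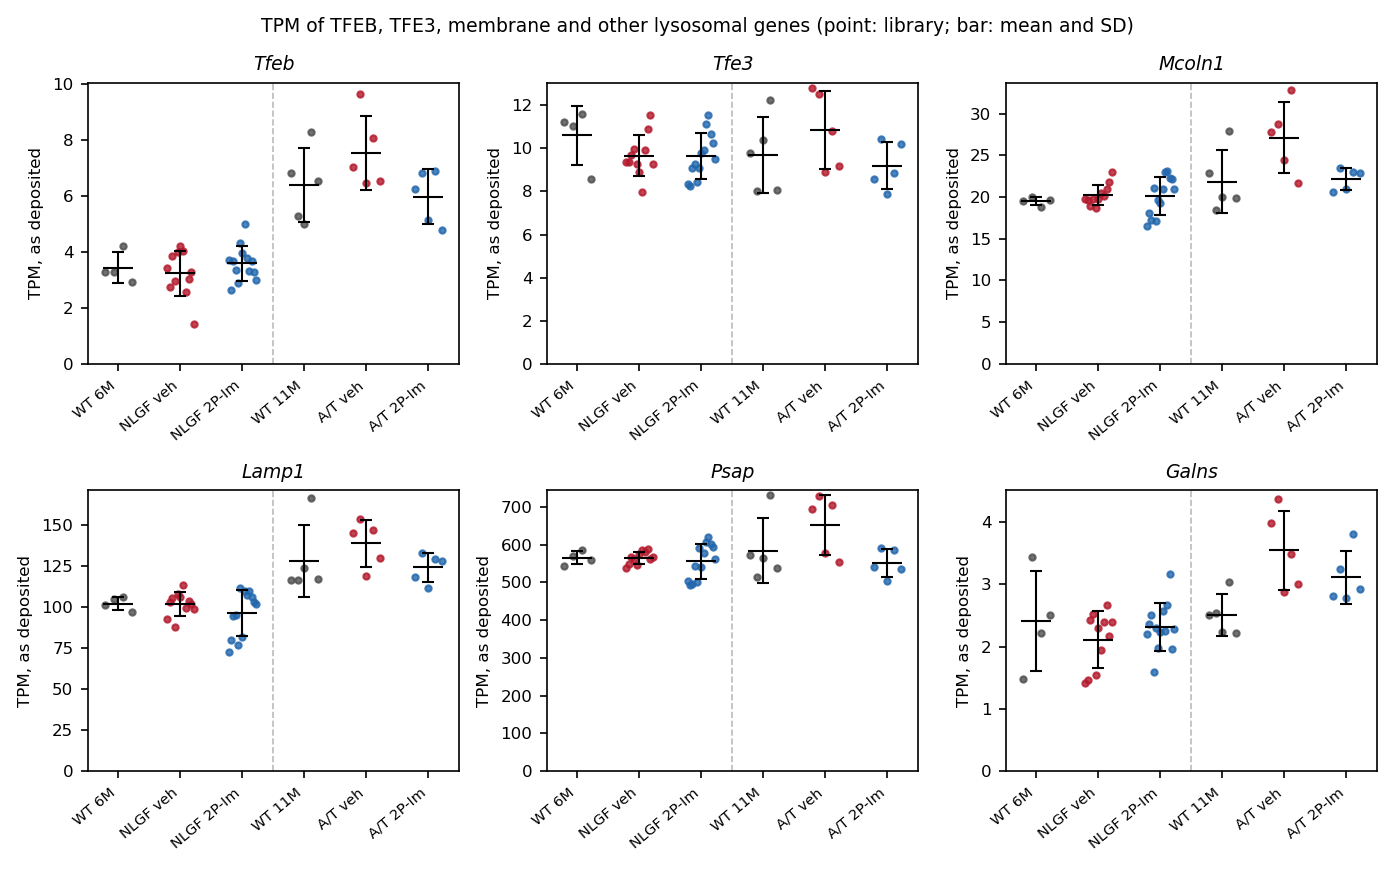
Deposited TPM on the vertical axis, from 0, of the regulators Tfeb and Tfe3, the membrane genes Mcoln1 and Lamp1, and Psap and Galns, in each library of the wild type (WT), AppNLGF (NLGF) and APP/TAU (A/T) groups. Points are libraries, bars the mean and SD, and the dashed line separates tables that were normalized separately. Within each table the groups of each gene overlap.

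No member was called in APP/TAU brain in any of the 3 comparisons on either scale. The vehicle group has less of the abundant RNA, 22.0 ± 6.60% of TPM (SD, n = 5) against 30.1 ± 3.72% in wild type and 29.5 ± 1.54% in treated libraries. The deposited TPM of all genes shifted by a median of 0.18 between vehicle and wild type and of -0.19 between treated and vehicle libraries, and the members' medians of 0.16 and -0.17 lay near these shifts. With median-ratio scaling the members' medians were -0.04 and 0.03.

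For APP/TAU vehicle minus wild type, 0 of 33 members were called by limma, against 0.0227% of all genes with deposited TPM, 0.0284% with median-ratio scaling. At an unadjusted p below 0.05 there were 9 members with deposited TPM and 5 with median-ratio scaling, where 23.8% and 14.2% of all genes were. The smallest p belonged to Galns, a sulfatase of keratan sulfate, at 2.51, 2.54, 2.23, 3.04 and 2.22 TPM in wild type and 3.99, 4.36, 2.87, 3.49 and 3.01 TPM in vehicle libraries. The lowest vehicle values lay within the wild type range, and the difference was 0.37 ± 0.12 (adjusted p = 0.126), or 0.21 ± 0.076 with median-ratio scaling (adjusted p = 0.254).

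Arsa, arylsulfatase A, which degrades the myelin lipid sulfatide, stood at 4.33, 4.65, 5.98, 5.52 and 5.01 TPM in wild type and 6.46, 8.03, 6.71, 9.57 and 5.08 TPM in vehicle libraries. Its difference was 0.40 ± 0.13 with deposited TPM (adjusted p = 0.13) and 0.22 ± 0.11 with median-ratio scaling (adjusted p = 0.382). Mcoln1 stood at 22.9, 18.4, 20.0, 27.9 and 19.9 TPM against 27.8, 28.7, 24.5, 32.8 and 21.7 TPM, a difference of 0.30 ± 0.12 (adjusted p = 0.161) that was 0.10 ± 0.056 with median-ratio scaling. All 3 genes overlapped between the groups.

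The genes that rose in AppNLGF brain did not pass here. Grn stood at 21.7, 17.5, 20.8, 24.9 and 20.6 TPM in wild type, 27.2, 28.2, 22.3, 26.2 and 23.2 TPM in vehicle and 18.9, 24.5, 19.1, 20.1 and 20.5 TPM in treated libraries. Its genotype difference was 0.26 ± 0.10 with deposited TPM (adjusted p = 0.163) and 0.06 ± 0.051 with median-ratio scaling (adjusted p = 0.612). Gusb stood at 4.44, 5.36, 7.51, 6.85 and 6.17 TPM in wild type and 5.77, 10.3, 5.68, 3.03 and 6.90 TPM in vehicle libraries, a difference of -0.01 ± 0.23 with deposited TPM. Here the vehicle libraries surrounded the wild type ones.

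With median-ratio scaling, Man2b1 differed by 0.05 ± 0.066, Hexa by -0.07 ± 0.057 and Npc2 by -0.20 ± 0.092 (adjusted p = 0.35). Hexa stood at 20.6, 17.2, 20.6, 26.2 and 22.3 TPM in wild type and 23.1, 26.8, 19.9, 26.2 and 21.5 TPM in vehicle libraries as deposited. Npc2 stood at 13.0, 12.3, 15.4, 18.4 and 12.5 TPM against 14.6, 17.2, 13.5, 12.6 and 13.2 TPM. Tfeb, at 6.84, 5.27, 5.01, 8.30 and 6.54 TPM against 7.03, 9.63, 6.47, 8.07 and 6.52 TPM, differed by 0.03 ± 0.080 with median-ratio scaling (adjusted p = 0.887). All of these groups overlapped.

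Man2b1 stood at 11.8, 9.91, 12.5, 13.4 and 11.0 TPM in wild type and 16.6, 17.1, 11.3, 13.8 and 12.3 TPM in vehicle libraries. Tfe3 stood at 9.78, 8.02, 10.4, 12.2 and 8.07 TPM against 12.8, 12.5, 8.90, 10.8 and 9.18 TPM, a difference of -0.04 ± 0.083 with median-ratio scaling (adjusted p = 0.855). For Man2b1 3 vehicle libraries and for Tfe3 2 were above all wild type ones, and the rest lay among them. Shares of all genes with these counts are not given here. Lamp1 stood at 116, 116, 124, 167 and 117 TPM against 145, 154, 119, 147 and 130 TPM, a difference of -0.08 ± 0.055 with median-ratio scaling (adjusted p = 0.505). Lamp2 stood at 45.1, 45.0, 48.9, 58.2 and 47.4 TPM against 52.4, 55.4, 47.0, 51.7 and 47.8 TPM, a difference of 0.06 ± 0.082 as deposited and of -0.15 ± 0.050 with median-ratio scaling (adjusted p = 0.238). No vehicle library of Lamp1 or Lamp2 lay outside the wild type range as deposited.

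For APP/TAU CDDO-2P-Im minus vehicle, 0 of 33 members were called by limma, against 0% of all genes with deposited TPM and 0.0114% with median-ratio scaling. At an unadjusted p below 0.05 there were 7 members with deposited TPM and 5 with median-ratio scaling, where 26.8% and 8.84% of all genes were. The 3 smallest p with deposited TPM belonged to Arsa at -0.38 ± 0.13, Grn at -0.29 ± 0.10 and Arsb, arylsulfatase B, at -0.28 ± 0.11, each with an adjusted p of 0.167. With median-ratio scaling these were -0.18 ± 0.11, -0.07 ± 0.051 and -0.07 ± 0.045. Treated Arsa libraries stood at 5.77, 4.48, 5.49, 5.17 and 5.00 TPM, overlapping vehicle. Arsb stood at 33.8, 36.4, 28.5, 32.4 and 25.8 TPM in vehicle and 24.2, 26.1, 24.0, 28.1 and 24.9 TPM in treated libraries, overlapping in the lowest vehicle library.

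Treated libraries of the other members followed per library overlapped vehicle as deposited. Gusb stood at 6.29, 6.08, 3.03, 5.42 and 6.17 TPM, Man2b1 at 11.3, 13.3, 11.3, 12.0 and 12.1 TPM, Hexa at 19.1, 25.1, 17.5, 22.3 and 18.2 TPM, and Npc2 at 12.5, 14.1, 14.1, 13.7 and 15.8 TPM. The regulators stood at 6.23, 6.84, 5.13, 6.89 and 4.80 TPM for Tfeb and at 8.57, 10.4, 7.86, 8.88 and 10.2 TPM for Tfe3. Of the membrane genes, Mcoln1 stood at 20.6, 23.5, 21.0, 23.0 and 22.8 TPM, Lamp1 at 119, 133, 112, 129 and 128 TPM, and Lamp2 at 46.7, 49.1, 43.8, 52.1 and 48.6 TPM. With median-ratio scaling Lamp2 differed from vehicle by 0.14 ± 0.050 (adjusted p = 0.504) and Lamp1 by 0.07 ± 0.055 (adjusted p = 0.751).

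Cd63, a tetraspanin of late endosomes and lysosomes, was the 1 member whose groups did not overlap in this comparison, with median-ratio scaling and in the direction higher after treatment, against 0.841% of all genes. As deposited, vehicle libraries stood at 38.1, 39.9, 33.6, 43.8 and 35.4 TPM and treated libraries at 36.4, 41.9, 36.1, 42.1 and 37.8 TPM, which overlap. With median-ratio scaling the vehicle range was 31.3 to 36.3 TPM and the treated range 39.0 to 41.5 TPM. The difference was 0.25 ± 0.072, which did not pass (adjusted p = 0.463), and wild type libraries, at 31.0 to 43.4 TPM, spanned both groups. Cd63 was singled out after its values were seen, and reads of its annotated pseudogene cannot be told apart here.

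For APP/TAU CDDO-2P-Im minus wild type, 0 of 33 members were called, against 0.0227% of all genes with deposited TPM and 0.0284% with median-ratio scaling, and 0 and 2 members had an unadjusted p below 0.05, where 2.16% and 7.83% of all genes did. The 3 smallest p belonged to Galns at 0.23 ± 0.12, Gla, the alpha-galactosidase lost in Fabry disease, at -0.15 ± 0.10 and Manba, the beta-mannosidase, at -0.09 ± 0.10 with deposited TPM (adjusted p = 1 for each). Treated Galns libraries stood at 2.81, 3.25, 2.78, 3.80 and 2.92 TPM and overlapped wild type. Gla stood at 4.70, 3.80, 4.67, 6.07 and 5.06 TPM in wild type and 3.87, 4.67, 3.96, 4.18 and 4.64 TPM in treated libraries. Manba stood at 4.05, 3.68, 4.21, 4.90 and 4.41 TPM and 3.33, 3.88, 3.56, 4.93 and 3.97 TPM.

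**Figure D4:**
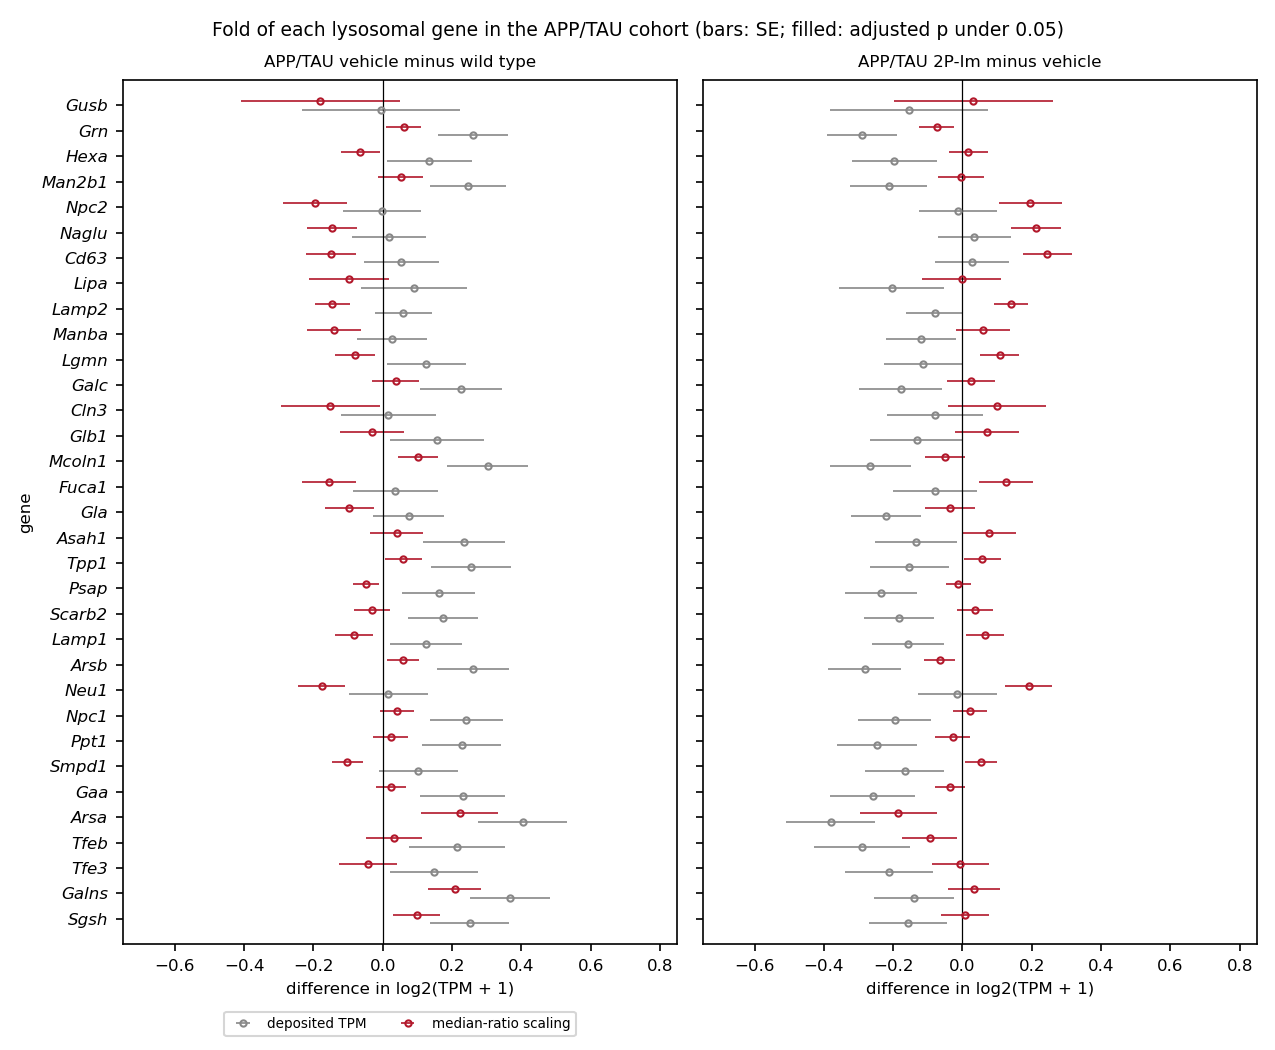
Difference in log2(TPM + 1) on the horizontal axis for each of the 33 genes (rows), with deposited TPM (grey) and median-ratio scaling (red), for APP/TAU vehicle minus wild type on the left and APP/TAU CDDO-2P-Im minus vehicle on the right. Bars are SE and a filled point would have an adjusted p below 0.05. No point is filled, and most grey points lie to the right of 0 on the left and to the left of 0 on the right, as the median of all genes did.

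The vehicle-against-wild type differences of the 2 models were compared directly, each within its own table, over the 16418 genes tested in both. With deposited TPM 0 of 33 members differed by limma, against 0.177% of all genes, and 6 had an unadjusted p below 0.05, where 19.8% of all genes did. With median-ratio scaling 5 members had a lower difference in APP/TAU than in AppNLGF brain, against 0.359% of all genes in that direction and 0.53% in either: Grn, Npc2, Hexa, Man2b1 and Lamp2. Among these the widest gap was that of Npc2, at -0.54 ± 0.11 (adjusted p = 0.00846), and that of Grn was -0.48 ± 0.086 (adjusted p = 0.00193). The calls of Grn, Npc2 and Hexa held in all 48 alternatives, that of Man2b1 in 40 and that of Lamp2 in 31. Gusb, at -0.79 ± 0.23, did not pass (adjusted p = 0.118).

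The models differ in age, weeks of treatment and alleles, and these cannot be told apart. Plaque-associated microglial markers, summed with median-ratio scaling, ranged from 74.6 to 99.1 TPM in wild type and from 70.3 to 98.1 TPM in APP/TAU vehicle libraries, and Cst7 ranged from 0 to 2.01 TPM in the latter as deposited. Regional markers differed between the cohorts too: 10 striatal markers summed to 532 to 679 TPM in 6-month and 113 to 169 TPM in 11-month wild type libraries, and 10 cerebellar markers to 38.9 to 52.0 and 530 to 734 TPM, in tables normalized separately. The part of any of these in the difference between models was not tested. For the effect of CDDO-2P-Im, 0 of 33 members passed limma's test of a difference between the models on either scale, against 0.134% of all genes with deposited TPM and 0.0731% with median-ratio scaling. On each scale 5 members had an unadjusted p below 0.05, where 16.2% and 11.5% of all genes did.

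Part of the RNA of many members is listed outside the gene rows of the AppNLGF table. That table holds 64708 further rows of single transcripts, and 136 of them belong to 31 of the members: 55 with a retained intron, 40 processed transcripts, 30 protein-coding and 11 subject to nonsense-mediated decay, by GENCODE M21. Averaged over the 28 libraries they held 70.9% of the TPM of Cln3, which is mutated in juvenile Batten disease, 62.5% of Mcoln1, 59.3% of the tripeptidyl peptidase gene Tpp1, 58.8% of Arsa and 51.2% of Manba, but 0% of Hexa and Psap. The gene rows of these 5 genes thus hold less than their full RNA. With these rows added to the gene rows, the members called in AppNLGF vehicle against wild type again numbered 2 with deposited TPM, beside 37 genes higher and 13 lower of all 17579, and 5 with median-ratio scaling, beside 73 higher and 23 lower. The rows alone could be tested for 23 members, and 0 were called by limma with deposited TPM. Only 1 of all 8875 genes with such rows was called. An unadjusted p below 0.05 was found for 3 members, and the share of all genes at that threshold is not given here. The APP/TAU table lists no transcript rows, and its gene rows held 84.9 to 90.8% of TPM per library. What they leave out cannot be added back, and the difference between models was not refitted with such rows.

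**Figure D5:**
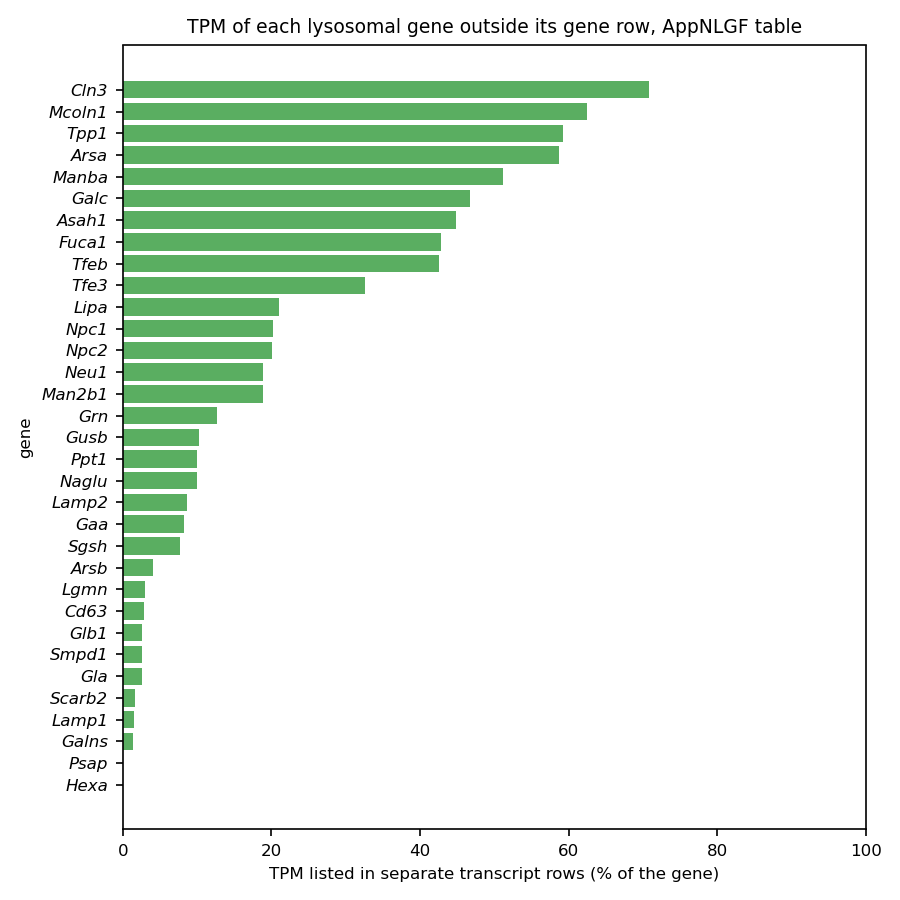
Share of each gene's TPM (horizontal axis, percent, from 0 to 100) that the AppNLGF table lists in separate transcript rows, 1 bar per gene, as the mean over 28 libraries. Cln3, at 70.9%, has the highest share and Hexa and Psap have none.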

How the data were processed

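RNA of 28 brain libraries of the AppNLGF cohort and 15 of the APP/TAU cohort was deposited by the authors as TPM in 2 tables, quantified with Salmon against GRCm38 per the submitters' processing notes; its version is not given in the sources used. TPM keep no depth, so the depth per library is unknown. Ensembl identifiers were matched to symbols with GENCODE M21. Differences were fitted with limma 3.58.1 in R 4.3.3 (empirical Bayes with a mean trend) on log2(TPM + 1), over all groups of a table, for genes with a mean of at least 1 TPM, with Benjamini-Hochberg adjustment over all genes and a threshold of 0.05. Median-ratio scaling was applied beside deposited TPM. The vehicle-against-wild type fits were tested on data simulated with the spread of the deposited TPM. The 200 changed genes were drawn from the more abundant genes only, with noise independent between genes. Recovery was not simulated for members of low abundance, such as Galns and Sgsh. A true rise of 0.25 was called for 8% of changed genes in AppNLGF and 0% in APP/TAU. A rise of 0.5 was called for 76% and 46%. A member that was not called can thus still differ by such amounts. The 33 members and all lists were chosen with earlier results of these data known. Values per library are given for members called in any comparison, Tfeb, Tfe3, Mcoln1, Lamp1 and Lamp2, and the 3 smallest p where fewer than 3 were called. Alternatives changed the scaling, filter, pseudocount, covariates and libraries. Tables were produced with Python 3.11.15, pandas 2.3.3 and scipy 1.17.1. Same-numbered libraries did not deviate together gene by gene, so numbers were not used as pairs. That comparison does not see a shift common to all genes of a library. The result of a further gene outside the members is not reported here.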

Additional observations from a re-analysis of the deposited data

Results flagged for a closer look

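In 64 groups of 4 or 5 libraries, 3 held a library far from the others, where chance gives about 1 in 20 groups. Gusb stood at 3.029 TPM in APP/TAU CDDO-2P-Im replicate 3, with the next library at 5.42 TPM. Man2b1 stood at 10.68 TPM in wild type replicate 1 of the 6-month cohort, below the next at 12.1 TPM. Lamp1 stood at 166.5 TPM in wild type replicate 4 of the 11-month cohort, above the next at 124 TPM.

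The vehicle-against-wild type difference was lower in APP/TAU than in AppNLGF brain for 5 members with median-ratio scaling, by limma's test of the difference itself: Grn at -0.476 ± 0.0859 (adjusted p = 0.00193), Npc2 at -0.537 ± 0.108 (adjusted p = 0.00846), Hexa at -0.498 ± 0.104 (adjusted p = 0.0127), Man2b1 at -0.353 ± 0.0795 (adjusted p = 0.027) and Lamp2 at -0.315 ± 0.0751 (adjusted p = 0.0374). Of all genes, 0.359% were called lower and 0.53% in either direction. With deposited TPM 0 of 33 members were called, against 0.177% of all genes. The Man2b1 call held in 40 and the Lamp2 call in 31 of 48 alternatives with median-ratio scaling.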

How the results depend on the processing

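No called member's difference changed sign under the alternatives run on the same scale. The members' median did: that of AppNLGF vehicle against wild type was 0.02 as deposited and -0.07 with a replicate block (all genes -0.13), and that of APP/TAU vehicle against wild type was 0.16 as deposited and -0.04 with median-ratio scaling. Of AppNLGF vehicle against wild type, 2 members were called with deposited TPM, 5 with median-ratio scaling, 5 when rescaled without mitochondrial and the 20 most abundant genes, 4 with only the groups compared, 1 with a term for Xist and 5 without treated libraries 1 and 2 together; leaving out 1 library gave 0 to 2, and 5 in each case with median-ratio scaling. Of AppNLGF CDDO-2P-Im against wild type, 2 were called as deposited, 4 with median-ratio scaling, 4 when rescaled, 0 with only the groups compared, 0 with a term for Xist and 9 with a term for replicate numbers 1 to 5, of which 2 were higher and 7 lower beside 88 genes higher and 5067 lower of all 16776; leaving out 1 library gave 0 to 2, and 3 to 6 with median-ratio scaling. Of the difference between models, 0 were called as deposited, 5 with median-ratio scaling, all lower, and 3 when rescaled; with median-ratio scaling 3 were called with a term for Xist and 3 to 5 without 1 library. Other settings combined with median-ratio scaling, and those with transcript rows, were chosen after seeing the data. As deposited and with median-ratio scaling, 0.28% and 0.691% of all genes were called in AppNLGF vehicle against wild type. In treated AppNLGF against wild type the shares were 0.262% and 0.715%, and in the difference between models 0.177% and 0.53%. For settings with no count of all genes beside them, that share is not given here. Their counts are thus not results about the members. The cause of the changes between settings was not tested. Of 33 correlations with the plaque-associated microglia mean in treated libraries, 0 passed with median-ratio scaling, 25 with deposited TPM and 1 with the homeostatic list. Such correlations were not computed over all genes. A term for Xist in APP/TAU and a fit of only the groups compared for differences between models were not run. The number of libraries and the unknown depth limit the precision.

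Labels number the libraries, but same-numbered libraries did not deviate together gene by gene (median correlation 0.020 over 19 AppNLGF pairs). That correlation over genes does not see a shift common to all genes. The abundant RNA took 34.39 to 37.95% of TPM in AppNLGF vehicle replicates 1 to 5 and 29.05 to 33.15% in 6 to 11. In treated replicates 1 to 5 it took 32.49 to 40.01%, and in 6 to 13 28.28 to 37.23%. With a replicate block and deposited TPM, 0 members were called in AppNLGF vehicle against wild type. In AppNLGF CDDO-2P-Im against wild type 4 were called, 2 higher and 2 lower, beside 64 genes higher and 3158 lower of all 16776. In the difference between models 8 were called, all higher and so opposite to the 5 lower with median-ratio scaling, beside 4810 genes higher and 22 lower of all 16418, where the median of all genes was 0.31. With median-ratio scaling and the block, 3 were called, all lower, beside 12 genes higher and 30 lower.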

Other observations

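With median-ratio scaling, no member's correlation with the mean of the plaque-associated microglial markers passed the threshold within a group. With deposited TPM, on which the abundant RNA moves all other values, 25 of the 33 did in treated libraries. The share of all genes that would pass was not computed, so this count is not a result about the members. With median-ratio scaling 33 correlations were computed in the 11 AppNLGF vehicle and 33 in the 13 treated libraries, each with a permutation test. The smallest p in treated libraries was that of Cd63, at Pearson's r = 0.77 (permutation p = 0.00225, adjusted p = 0.0742) and Spearman's rho = 0.53, and r was 0.49 without the 2 libraries farthest from the median. In vehicle libraries it was that of Lipa, the acid lipase, at r = 0.80 (permutation p = 0.00271, adjusted p = 0.0894) and rho = 0.66, and r was 0.39 without such libraries. The median r over the 33 members was 0.11 in each group.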
